A study of Mus musculus with 12 samples.

Results

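The genes described here encode the proteins of the mitochondrial ribosome. They were taken as the protein-coding gene identifiers whose GENCODE M21 mouse symbol begins with Mrpl or Mrps followed by a number, which gave 78 of the 55487 identifiers in each of the count tables. By symbol, 29 belonged to the small subunit (Mrps) and 49 to the large subunit (Mrpl). All 78 passed the low-count filter in both comparisons, and the smallest count of a member in a library was 372, for Mrpl53. The symbol rule did not take 5 processed pseudogenes with Mrp symbols, nor 5 mitoribosomal proteins with other symbols (Dap3, Chchd1, Aurkaip1, Ptcd3 and Gadd45gip1), which are described apart.

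RNA was sequenced from 12 samples of mouse OT-1 CD8+ T cells, a transgenic line whose T cells carry a single ovalbumin-specific receptor. Female and Male, with 3 samples each, were splenic cells of each sex stimulated through CD3 and CD28 on beads, with mouse recombinant IL2, for 3 days. WT and KD, with 3 samples each, were male CD8+ T cells of another batch, kept in culture for 3 days after electroporation. To KD cells were given both Cas9 and a guide RNA that targets Kdm5d, a Y-linked gene for a histone lysine demethylase, whereas guide RNA alone went into WT. The groups therefore differed in Cas9 as well as in Kdm5d, and the effects of each cannot be told apart. Age, strain background and the number of mice behind the samples were not given in the sources used here, so p-values measure the spread between these samples, which may be technical. The first comparison asked how the sexes differ. The second asked how male cells given Cas9 and the Kdm5d guide differ from male cells given guide RNA alone.

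The mitochondrial ribosome makes the few proteins encoded by mitochondrial DNA, all of them subunits of the respiratory chain or the ATP synthase. Its own proteins are encoded in the nucleus, made in the cytosol and imported, and they assemble on ribosomal RNAs transcribed inside the organelle. Some of them are counterparts of bacterial ribosomal proteins, and others were added during the evolution of mitochondria. In CD8+ T cells, mitochondrial translation is known as a process that rises after activation and supports proliferation and effector function.

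Promoter windows from RefSeq (GRCm38.p6), running from 250 bases before to 50 bases after a start, were found for 69 of the 78 members, in 75 windows. Windows were not matched for Mrpl13, Mrpl15, Mrpl19, Mrpl38, Mrpl4, Mrpl54, Mrps28, Mrps34 and Mrps35. The windows below belong to Mrpl30, Mrpl49, Mrps17 and Mrpl10. Each was the called member with the smallest p in 1 direction of 1 comparison, among those with a window: Mrpl30 higher and Mrpl49 lower in Male, Mrps17 higher and Mrpl10 lower in KD. The window of Mrps11, chosen after its values were seen, is added because Mrps11 and Mrpl46 lie on opposite strands with annotated 5′ ends that overlap, and both were higher in Male. Capitals mark a match to 1 of the motifs searched on both strands: the NRF1 motif (its palindromic consensus, with 1 free base, as in the capitals of Mrpl30), CCGGAAGT (the ETS motif bound by GABPA), AAGATGGC (the YY1 motif) and CACGTG (the E-box).
Mrpl30: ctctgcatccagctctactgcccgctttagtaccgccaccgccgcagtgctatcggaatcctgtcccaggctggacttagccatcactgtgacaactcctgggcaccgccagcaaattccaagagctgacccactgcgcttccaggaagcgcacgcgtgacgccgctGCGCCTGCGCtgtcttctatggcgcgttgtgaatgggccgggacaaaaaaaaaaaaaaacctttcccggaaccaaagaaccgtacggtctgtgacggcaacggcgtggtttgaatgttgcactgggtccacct
Mrpl49: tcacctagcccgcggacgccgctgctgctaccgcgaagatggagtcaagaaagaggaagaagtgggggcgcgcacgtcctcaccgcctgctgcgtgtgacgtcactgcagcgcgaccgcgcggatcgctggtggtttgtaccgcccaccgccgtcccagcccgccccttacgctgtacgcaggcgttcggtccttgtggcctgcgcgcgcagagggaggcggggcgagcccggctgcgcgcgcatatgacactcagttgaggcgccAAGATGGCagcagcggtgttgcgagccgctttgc
Mrps17: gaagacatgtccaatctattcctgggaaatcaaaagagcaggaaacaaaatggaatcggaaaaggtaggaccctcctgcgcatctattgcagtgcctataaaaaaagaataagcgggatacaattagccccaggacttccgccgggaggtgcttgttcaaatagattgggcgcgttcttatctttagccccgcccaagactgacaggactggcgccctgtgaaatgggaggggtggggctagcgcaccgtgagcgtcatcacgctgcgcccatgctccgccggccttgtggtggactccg
Mrpl10: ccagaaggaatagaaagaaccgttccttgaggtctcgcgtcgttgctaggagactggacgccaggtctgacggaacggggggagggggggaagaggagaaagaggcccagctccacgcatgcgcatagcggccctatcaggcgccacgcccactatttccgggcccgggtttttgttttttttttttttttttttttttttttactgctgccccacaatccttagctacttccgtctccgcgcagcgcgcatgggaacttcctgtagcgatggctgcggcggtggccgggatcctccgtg
Mrps11: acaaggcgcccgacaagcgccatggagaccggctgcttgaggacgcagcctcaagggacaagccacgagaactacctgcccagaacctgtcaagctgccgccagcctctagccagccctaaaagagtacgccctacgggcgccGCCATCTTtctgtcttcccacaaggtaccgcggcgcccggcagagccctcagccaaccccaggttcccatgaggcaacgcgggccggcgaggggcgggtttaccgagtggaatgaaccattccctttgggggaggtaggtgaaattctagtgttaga
These windows are at chr1:37890227-37890526 (plus strand), chr19:6057706-6058005 (minus strand), chr5:129715247-129715546 (plus strand), chr11:97041332-97041631 (plus strand) and chr7:78782881-78783180 (plus strand). The capitals in Mrpl30 are an NRF1 match that begins 83 bases before the start. Those in Mrpl49 are a YY1 match just after the start, and those in Mrps11 are a YY1 match on the opposite strand that begins 107 bases before the start. The windows of Mrps17 and Mrpl10 held no match to the letters searched.

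Across all member windows, the NRF1 letters were found in 17.3%, against 4.60% of all 32851 RefSeq windows and 6.38% of the protein-coding ones. The ETS letters were in 16% of member windows, against 3.89% of all and 5.15% of the protein-coding ones. The YY1 letters were in 16%, against 2.75% and 3.05%. The E-box letters were in 9.33%, against 7.15% and 7.84%, the smallest gap of the 4 motifs. At least 1 of the 4 motifs was in 50.7% of member windows, 16.3% of all windows and 19.6% of the protein-coding ones. Member windows had a median GC content of 58.7%, against 52.7% over all windows and 56.3% over the protein-coding ones. GC content bears on how often GC-rich letters occur by composition. In Male against Female, 23 of the 36 genes with any of the motifs were called higher and 2 lower, and 20 of the 33 without were called higher and 2 lower. The median log2 fold change was 0.23 in each set. In KD against WT, 4 of the 36 were higher and 4 lower, and of the 33 without 8 were higher and 6 lower. Taken alone, some motifs divided the members less evenly. Of 13 with the NRF1 letters, 7 were higher and 1 lower in Male (median 0.15) and 1 higher and 4 lower in KD (median -0.08). Of 56 without them, 36 were higher and 3 lower in Male (median 0.27) and 11 higher and 6 lower in KD (median 0.02). Of 12 with the ETS letters, 6 were higher and 0 lower in Male (median 0.14). Of 57 without those, 37 were higher and 4 lower (median 0.27). In KD, 1 of the 12 was higher and 0 lower, against 11 and 10 of the 57. For YY1 and the E-box, the Male medians were higher with the letters (0.28 and 0.27) than without (0.20 and 0.21). Only 12 members held the YY1 letters, 8 of them higher and 1 lower in Male, against 35 and 3 of 57 without. The E-box was in 5 members, 4 higher and 0 lower in Male, against 39 and 4 of 64 without. In KD, 1 of the 12 was higher and 1 lower, and 1 of the 5 was higher and 0 lower. Over all genes tested, 23.5% were called higher and 26.3% lower in Male, and 16.8% and 18.4% in KD. No test of these differences was made.

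The members lay on 17 chromosomes, none of them X or Y. Chromosome 11 held 11, chromosome 17 held 8 and chromosome 6 held 7. Their exons together spanned a median of 2394 bases per gene, against 4326 for the protein-coding genes tested in Male against Female. The median GC content of the longest transcript was 49.8% for the members against 50% for those genes. In 26 members the start lay head to head with the start of another gene on the opposite strand. In 30 members, over 10% of the exon length overlapped another annotated gene, or over 10% of the 31-base subsequences were shared with transcripts of another gene. Since the use of strand in counting was not given in the sources used here, the counts of these 30 are uncertain. Among the members named below they are Mrpl10, Mrpl12, Mrpl19, Mrpl23, Mrpl24, Mrpl41, Mrpl46, Mrpl48, Mrps5, Mrps6, Mrps18b, Mrps18c, Mrps24, Mrps25 and Mrps36.

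Total counts lay between 78748647 and 110803318 per sample. Kdm5d had 0 to 2 counts per Female library, 49.5 to 52.2 counts per 1000000 counts of the library (CPM) in Male, 48.4 to 52.4 CPM in WT and 21.4 to 22.9 CPM in KD, so that KD kept a part of the transcript. Its log2 fold change in KD against WT was -1.21 ± 0.0455 (SE), with an edgeR adjusted p of 3.13e-08. The 9 CD8 T cell markers summed to between 3665 and 4856 CPM in every library. Of these 9, 2 were called higher and 4 lower in Male against Female, and 5 were called lower in KD against WT. The B cell gene Ms4a1 was under 0.1 CPM in every library, whereas Ighm, the immunoglobulin mu heavy chain, averaged 606 CPM in Female, 310.0 in Male, 256 in WT and 290.4 in KD. The 3 CD4 T cell genes summed to between 2.31 and 6.31 CPM, with Cd4 itself at 0.182 CPM in Female and at 0 in Male. Foxp3, of the same list, was called higher in Male (2.82 CPM in Female, 4.38 in Male, edgeR adjusted p 0.0208) and lower in KD (2.65 in WT, 1.46 in KD, edgeR adjusted p 0.00243). Myeloid, dendritic, NK and erythroid lists summed to at most 4.07 CPM in any library, the highest being the dendritic list in WT (3.17 to 4.07 CPM, against 0.875 to 1.51 in KD). Nearly all of that sum was Itgax, which averaged 3.57 CPM in WT and 1.19 in KD (edgeR adjusted p 1.60e-04). The other genes of the dendritic list, Clec9a, Flt3 and Siglech, averaged at most 0.0504 CPM in WT and 0 in KD. Genes of the mitochondrial chromosome took between 0.604% and 0.710% of the counts. The part of these differences in the results below was not tested.

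Members were more often higher than lower in Male against Female. At an adjusted p under 0.05 over the 20208 genes tested (edgeR quasi-likelihood test, Benjamini-Hochberg), 49 of 78 were higher in Male and 4 were lower, leaving 25 not called. The background was large: 23.5% of all genes tested were called higher in Male and 26.3% lower, against 62.8% and 5.13% of the members. The differences were small, with log2 fold changes from -0.55 to 0.72 and a median of 0.213, or 1.16-fold. The median over all genes tested was 0.0106 and over protein-coding genes -0.0592. No member differed by 2-fold. In 51 members each Male sample lay above each Female sample, and in 5 each lay below, where 28.6% and 29.7% of all genes did so.

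Members of both subunits showed this direction. Among small-subunit symbols, 17 of 29 were higher and 2 lower, with a median log2 fold change of 0.226, which was 0.121 without the members of uncertain counts. Among large-subunit symbols, 32 of 49 were higher and 2 lower, with a median of 0.201. Summed over small-subunit members, the level was 721 ± 10.8 CPM (SD, n = 3) in Female and 814 ± 2.14 in Male, a ratio of means of 1.13. The large-subunit sum was 1331 ± 19.8 CPM in Female and 1522 ± 10.0 in Male, a ratio of 1.14. The sums of the sexes did not overlap in either subunit, with small-subunit sums from 714 to 733 CPM in Female and from 811 to 815 in Male. In bulk RNA, a difference in the RNA per cell cannot be told apart from a difference in the kinds of cells present.

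**Figure D1:**
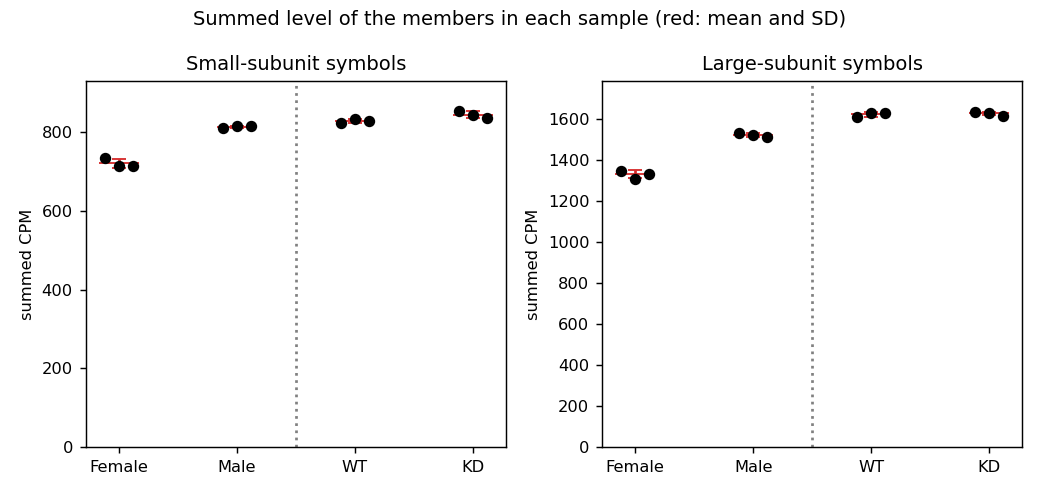
Summed level of the mitochondrial ribosomal protein genes in each of the 12 samples, in CPM (vertical axis from 0), for small-subunit symbols (left) and large-subunit symbols (right). Black points are samples, red marks are the mean and SD, and the dotted line separates the count tables, which were normalized apart. Female samples lie below Male samples in both panels (means 721 and 814 CPM on the left, 1331 and 1522 on the right), while WT and KD lie close together.

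The largest differences were in large-subunit members. Mrpl46, a mitochondrion-specific protein of the central protuberance (ENSMUSG00000030612, chr7:78775236-78783531, GRCm38, GENCODE M21), was at 10.9, 9.95 and 9.99 CPM in the Female samples and 16.1, 17.2 and 17.5 CPM in the Male samples. Its log2 fold change was 0.72 ± 0.0622 (SE), with an edgeR adjusted p of 3.97e-06. Each Male sample was above each Female sample for Mrpl46. Mrps11, a counterpart of a bacterial small-subunit platform protein (ENSMUSG00000030611, chr7:78783119-78792989), starts 412 bases from the outermost annotated start of Mrpl46 on the other strand, and their 5′ ends overlap. It had 12.1, 12.7 and 13.6 CPM in the Female samples and 19.8, 18.7 and 19.4 in the Male samples, a log2 fold change of 0.59 ± 0.0581 (adjusted p 1.11e-05). The sexes did not overlap for this gene either. Of the exon length of Mrpl46, 12.2% overlapped Mrps11, and 7.97% of that of Mrps11 overlapped Mrpl46.

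The other called members whose log2 fold change reached 0.58 were all large-subunit proteins. Mrpl11 (chr19:4962147-4966999), whose bacterial counterpart lies at the base of the stalk where translation GTPases dock, rose from 10.5 ± 0.603 CPM (SD, n = 3) in Female to 16.6 ± 0.972 in Male, a log2 fold change of 0.67. Mrpl52, a mitochondrion-specific protein, had 11.5, 11.1 and 11.8 CPM in the Female samples and 18.1, 18.1 and 17.7 in the Male samples, 1.57-fold higher without overlap. Mrpl16, whose bacterial counterpart lies near the site where transfer RNA enters, had a log2 fold change of 0.65 ± 0.0617. Mrpl41, mitochondrion-specific, had 0.61 ± 0.0627, and shared 21.1% of its 31-base subsequences with the predicted gene Gm6434. Mrpl30 (ENSMUSG00000026087, chr1:37890477-37898535), a counterpart of a bacterial large-subunit protein, had the smallest p of all members. It had 46.7, 46.8 and 49.9 CPM in the Female samples and 73.7, 74.5 and 69.8 CPM in Male, a log2 fold change of 0.60 ± 0.037 (adjusted p 3.09e-07 by edgeR). The sexes did not overlap.

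Further members called higher in Male had smaller differences. Mrpl12 (chr11:120484613-120489065), the stalk protein that recruits elongation factors, had 51.1, 46.6 and 50.5 CPM in the Female samples and 68.3, 69.3 and 70 CPM in Male. This was a log2 fold change of 0.49 ± 0.0368 (adjusted p 1.50e-06 by edgeR), with no overlap. Mrpl15 (chr1:4773206-4785739) had 36.3, 35.7 and 35.7 CPM in the Female samples and 51.1, 54 and 50.6 in the Male samples. Mrps5 (chr2:127587222-127606829), a counterpart of the bacterial protein at the entry of the messenger RNA channel, had 28.7, 27.9 and 27.8 CPM in the Female samples and 37.4, 38.8 and 40 in the Male samples. For both of these the Male samples were all higher, by 0.53 and 0.46 on the log2 scale. Mrps12, of the decoding site, rose by 0.51 ± 0.0639, Mrpl3, near the peptidyl transferase centre, by 0.40 ± 0.0355, and Mrpl17, a counterpart of a bacterial large-subunit protein, by 0.56 ± 0.0509.

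Against this direction, 4 members were lower in Male. Mrpl49 (ENSMUSG00000007338, chr19:6053622-6057785), a mitochondrion-specific large-subunit protein, had 34.8, 35.9 and 36.4 CPM in the Female samples and 24, 24 and 25.3 CPM in Male. Its log2 fold change was -0.55 ± 0.0396 (adjusted p 1.05e-06 by edgeR), and each Male sample was below each Female sample. Mrpl9 (chr3:94443318-94451130), a counterpart of a bacterial large-subunit protein, had 67.4, 65.1 and 66.2 CPM in the Female samples and 47.3, 47.4 and 50.8 in the Male samples, a log2 fold change of -0.45 ± 0.0346. Mrps6 (chr16:92058270-92112227), of the small-subunit platform, had 16.2, 14.3 and 14.1 CPM in the Female samples and 11.6, 11.1 and 10 in the Male samples (-0.44 ± 0.0783). The annotated exons of Mrps6 overlap those of Slc5a3 and Gm49711 on the same strand over 19.9% of their length. Mrps30, which structures place in the large subunit despite its symbol, had 54.4, 54.6 and 48.4 CPM in the Female samples and 46.6, 48.7 and 46 in the Male samples. Here the sexes overlapped, and the log2 fold change of -0.16 ± 0.048 (adjusted p 0.0207) was the least firm of the 4. Its adjusted p was 0.0597 without Female replicate 1, 0.0751 without Female replicate 2, 0.0523 without Male replicate 1, 0.0728 without Male replicate 3 and 0.0889 with protein-coding genes only.

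**Figure D2:**
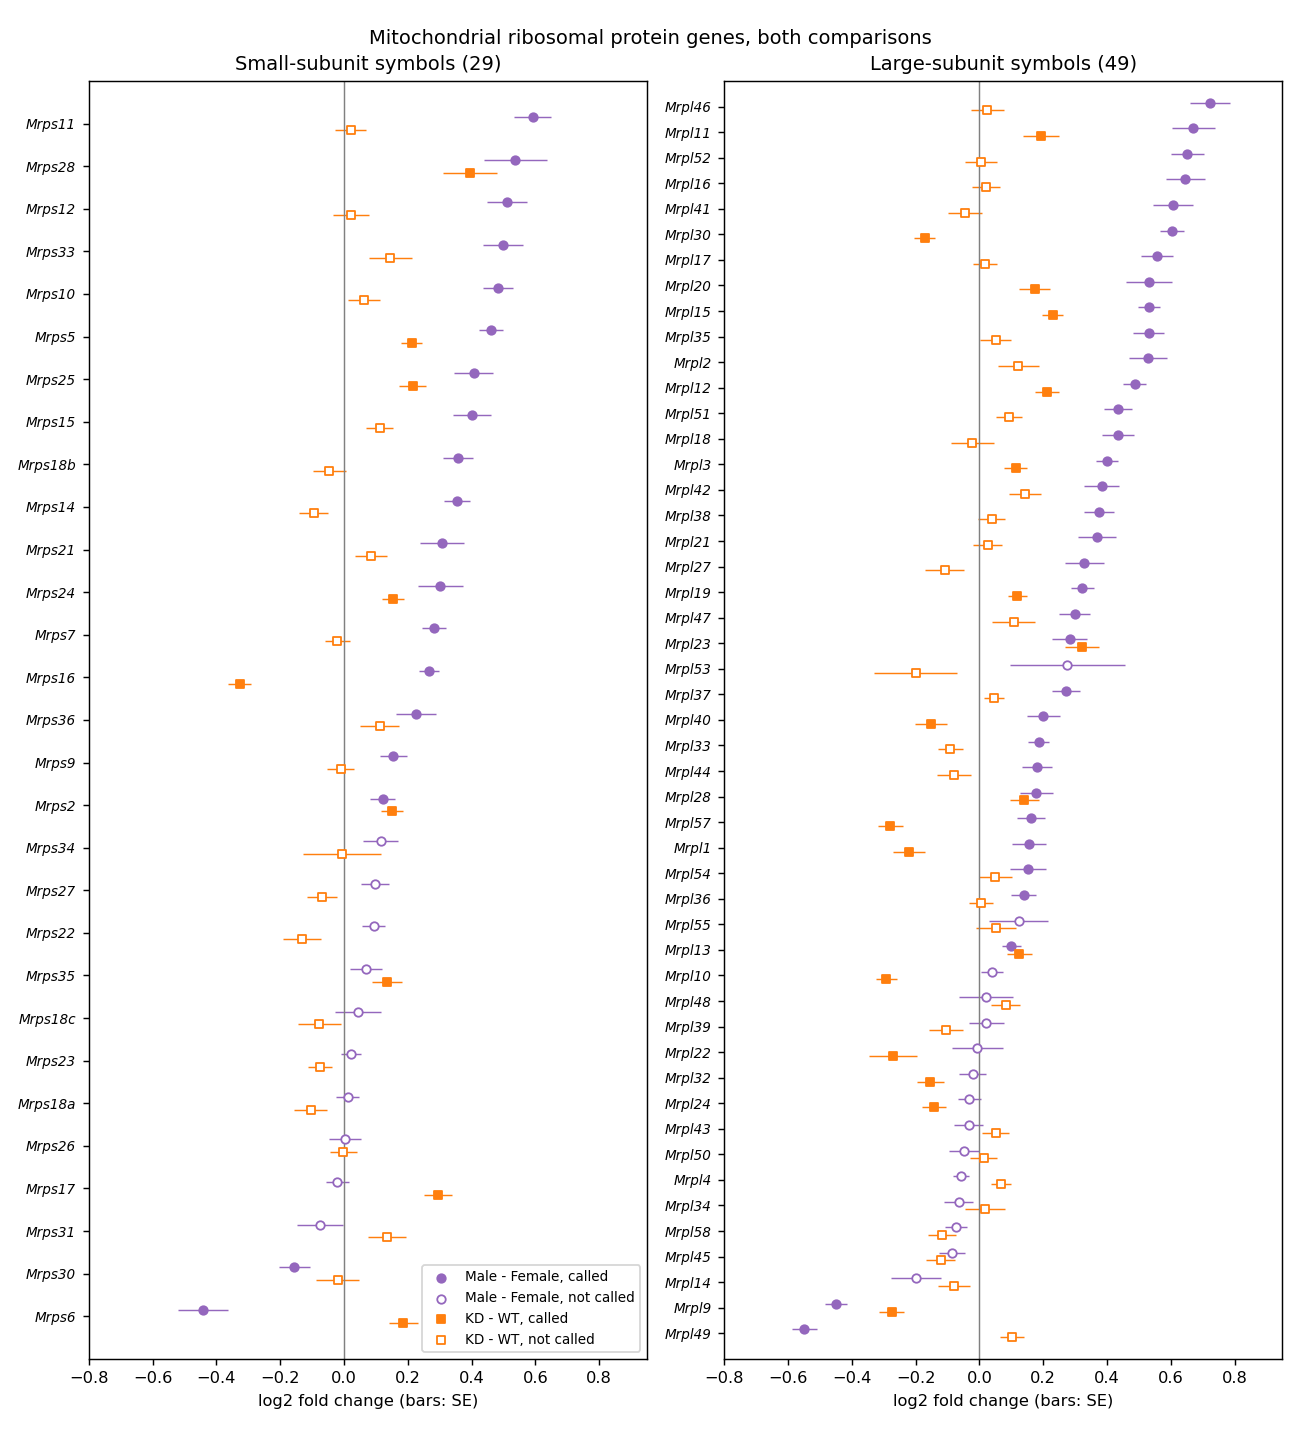
Log2 fold change of each of the 78 members in Male against Female (purple circles) and KD against WT (orange squares), with small-subunit symbols on the left and large-subunit symbols on the right, ordered by the first comparison. Bars are standard errors, filled symbols were called at an adjusted p under 0.05 and open ones were not. Most purple symbols lie right of 0, from -0.55 (Mrpl49) to 0.72 (Mrpl46), while the orange ones lie on both sides, from -0.33 (Mrps16) to 0.39 (Mrps28).

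In KD against WT the members were divided. Of 78, 17 were higher and 10 lower in KD and 51 were not called, where 16.8% of the 20413 genes tested were called higher and 18.4% lower. The members' shares were 21.8% and 12.8%. Without WT replicate 3 the count called higher was 11. Log2 fold changes lay between -0.33 and 0.39 with a median of 0.021, against 0.0124 over all genes tested. In 24 members each KD sample lay above each WT sample and in 15 below, against 23.2% and 23.6% of all genes.

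The counts by subunit were unequal in this comparison. Of 29 small-subunit symbols, 8 were higher and 1 lower, whereas of 49 large-subunit symbols 9 were higher and 9 lower. These were 27.6% and 3.45% of the small subunit and 18.4% and 18.4% of the large. Of all genes tested, 16.8% were higher and 18.4% lower, close to the large-subunit shares. The difference between the subunits was not tested. The medians were nevertheless alike, 0.022 and 0.020. The summed level changed little: 829 ± 5.19 CPM (SD, n = 3) in WT and 844 ± 8.89 in KD for the small subunit, and 1625 ± 11.3 and 1629 ± 9.61 for the large subunit. The small-subunit sums did not overlap, from 823 to 833 CPM in WT and from 836 to 854 in KD. Those of the large subunit did, from 1612 to 1632 CPM in WT and from 1619 to 1638 in KD. Over all members the ratio of the KD mean to the WT mean was 1.01.

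Mrps28 (ENSMUSG00000040269, chr3:8802146-8923918), a small-subunit protein, had the largest log2 fold change among the members called higher. It was at 5.93, 6.64 and 5.68 CPM in WT and 8.2, 8.07 and 7.73 CPM in KD, a log2 fold change of 0.39 ± 0.0849 (adjusted p 0.00455 by edgeR). No KD sample overlapped a WT sample. Mrps17 (chr5:129715497-129722556), whose bacterial counterpart binds the ribosomal RNA early in assembly, was at 37.7, 40.6 and 36.5 CPM in WT and 46, 47.6 and 47.2 in KD. This was 0.29 ± 0.0441 on the log2 scale (adjusted p 0.000459), again without overlap. Mrpl23 (chr7:142532686-142540747), of the peptide exit tunnel, was at 18.7, 20.6 and 18.7 CPM in WT and 25.4, 23.6 and 23.4 in KD, a log2 fold change of 0.32 ± 0.0533. It shared 14.2% of its 31-base subsequences with the pseudogene Mrpl23-ps1.

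Several members higher in Male were higher again in KD. Mrpl15 rose from 55.8, 59 and 56.2 CPM in WT to 66.7, 66.2 and 67.5 CPM in KD (0.23 ± 0.0329, adjusted p 0.000347 by edgeR). Mrpl12 was at 72.3, 71.9 and 75.4 CPM in WT and 85.8, 88.1 and 80.7 in KD (0.21 ± 0.0376), and Mrps5 at 38.3, 38.1 and 38.9 in WT and 45.1, 44.7 and 43.8 in KD (0.21 ± 0.0335). In these 3 genes the lowest KD sample was above the highest WT sample. Mrps25 and Mrps24, the latter a counterpart of a bacterial protein of the messenger RNA entry, rose by 0.21 and 0.15, the latter with an edgeR adjusted p of 0.0523 in a fit of all 12 samples. Of the exon length of Mrps25, 69.8% overlapped Nr2c2 on the other strand, so its count is among the least certain.

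Among members lower in KD, Mrpl10 had the smallest p. Mrpl10 (ENSMUSG00000001445, chr11:97041560-97049213), which anchors the copies of Mrpl12 at the base of the stalk, was at 68.8, 72.2 and 70.6 CPM in WT and 56.4, 58.7 and 57.8 CPM in KD. Its log2 fold change was -0.29 ± 0.0325 (adjusted p 5.89e-05 by edgeR), with each KD sample below each WT sample. Mrpl12 and Mrpl10, which bind each other on the ribosome, thus changed in opposite directions in KD, and Mrpl11, also of the stalk base, was called higher (0.19 ± 0.0567, adjusted p 0.0232 by edgeR). The counts of Mrpl12 and Mrpl10 are among the uncertain ones, with 13.05% and 14.05% of their exon lengths overlapping genes on the other strand. Mrps16 (chr14:20389304-20393634), a small-subunit protein whose loss in humans causes a respiratory chain disease, had the largest fall. It was at 57.2, 58.4 and 59 CPM in WT and 44.5, 47.7 and 46.9 CPM in KD, a log2 fold change of -0.33 ± 0.0365 (adjusted p 6.05e-05 by edgeR). Mrpl57 (chr14:57826234-57829296), mitochondrion-specific, was at 32.4, 32 and 33.5 CPM in WT and 26.2, 27.2 and 27.3 in KD, and Mrpl9 at 42.8, 41.3 and 42 in WT and 33.7, 36 and 34.5 in KD. Both fell without overlap, with log2 fold changes of -0.28 ± 0.039 and -0.27 ± 0.0389. Mrpl1, of the stalk by which transfer RNA leaves, had a log2 fold change of -0.22 ± 0.0499.

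Some weaker results in KD changed sides of the threshold when 1 library was left out. Mrpl24, of the exit tunnel, had a log2 fold change of -0.14 and an edgeR adjusted p of 0.0153, which became 0.0507 without WT replicate 1, 0.0513 without WT replicate 2 and 0.0600 without KD replicate 3. Mrpl32, which is trimmed by a mitochondrial protease before it joins the ribosome, had -0.15 and 0.017, and its adjusted p was 0.0731 without WT replicate 1 and 0.0534 without KD replicate 2. Mrpl58, a peptidyl-tRNA hydrolase that became a ribosomal protein and frees stalled ribosomes, was not called in KD (-0.12 ± 0.0436, adjusted p 0.0621). Its adjusted p was 0.0236 without KD replicate 1, 0.0387 by DESeq2 and 0.0326 in a fit of all 12 samples.

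**Figure D3:**
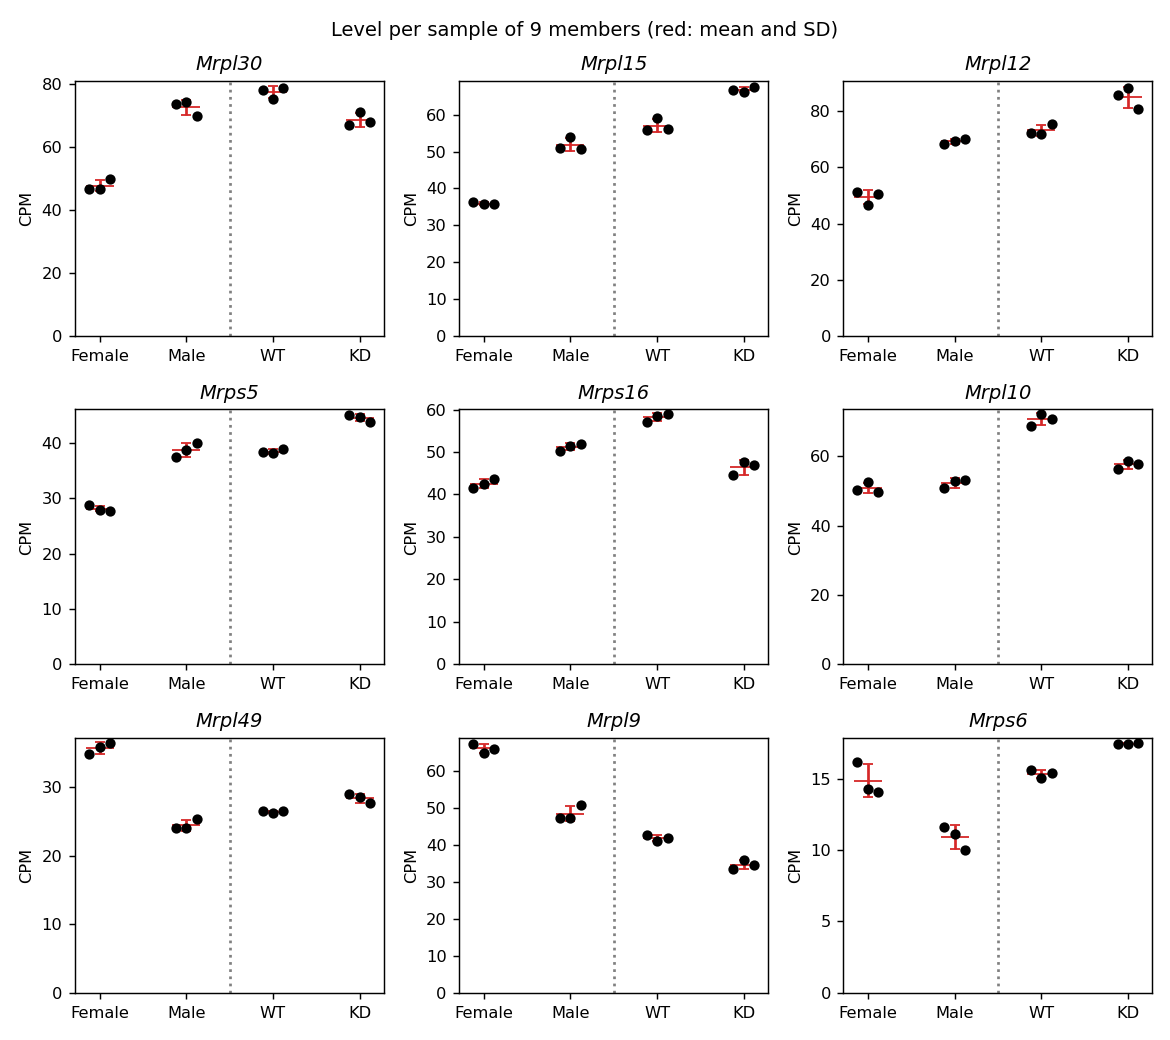
Level of 9 named members in each sample, in CPM (vertical axes from 0). Black points are samples, red marks are the mean and SD, and the dotted line separates the count tables. Mrpl15, Mrpl12 and Mrps5 are higher in Male than in Female and in KD than in WT, Mrpl30 and Mrps16 are higher in Male but lower in KD, and Mrpl9 is lower in both.

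The comparisons share no samples, so their calls can be set side by side. In both, 21 members were called, or 26.9% of the 78, where 25.7% of the 19529 genes tested in both were. These 21 were 39.6% of the members called in Male against Female and 77.8% of those called in KD against WT. Over all genes, 5014 were called in both, beside 10067 called in Male against Female and 7171 called in KD against WT. The direction was the same in 15 (19.2% of members, 11.5% of all genes) and opposite in 6 (7.69% of members, 14.1% of all genes). Leaving out each library in turn gave between 15 and 20 members called in both, the lowest without WT replicate 3. The 14 members higher in both were Mrpl3, Mrpl11, Mrpl12, Mrpl13, Mrpl15, Mrpl19, Mrpl20, Mrpl23, Mrpl28, Mrps2, Mrps5, Mrps24, Mrps25 and Mrps28. Some of these names were chosen after their values were seen. Mrpl9 was lower in both.

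The 6 members with opposite calls were Mrpl1, Mrpl30, Mrpl40, Mrpl57 and Mrps16, which rose in Male and fell in KD, and Mrps6, for which the reverse held. For Mrpl30, the Male samples were at 73.7, 74.5 and 69.8 CPM, the WT samples at 78.4, 75.3 and 78.8 and the KD samples at 67, 71.3 and 68.1, a KD to WT ratio of 0.888 (log2 -0.17 ± 0.034, adjusted p 0.00277 by edgeR). KD and WT did not overlap for this gene. Mrps16 had 41.5, 42.6 and 43.6 CPM in the Female samples and 50.3, 51.5 and 52 in the Male samples, a log2 fold change of 0.27 ± 0.032, close in size to its fall in KD. Mrps6 was at 15.6, 15.1 and 15.4 CPM in WT and 17.4, 17.4 and 17.5 in KD (0.19 ± 0.0452), all KD samples being higher. Mrpl57 differed by 0.16 ± 0.0439 in Male against Female. Mrpl1 differed by 0.15 ± 0.0531 there, and its adjusted p of 0.0339 became 0.117 without Female replicate 2, 0.0779 without Female replicate 3, 0.129 without Male replicate 1, 0.0812 without Male replicate 2, 0.0899 with no low-count filter and 0.0588 in a fit of all 12 samples. Mrpl40, of the central protuberance, had 0.20 in Male against Female and -0.15 in KD against WT. With length and GC trends removed, neither was called (0.12 with an edgeR adjusted p of 0.0923, and -0.15 with 0.0593). The value in KD against WT had an adjusted p of 0.0404, and of 0.112 without WT replicate 1, 0.143 without WT replicate 3, 0.142 without KD replicate 2, 0.0776 without KD replicate 3, 0.0963 with upper-quartile factors and 0.0582 with no low-count filter.

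Over the 78 members, Spearman's rho between the log2 fold changes of the comparisons was 0.31, against -0.08 over the 19529 genes tested in both. This is a description across genes, which are not independent replicates and share their libraries. Neither comparison called 19 members, among them Mrpl58 and the paralogs Mrps18a and Mrps18c.

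**Figure D4:**
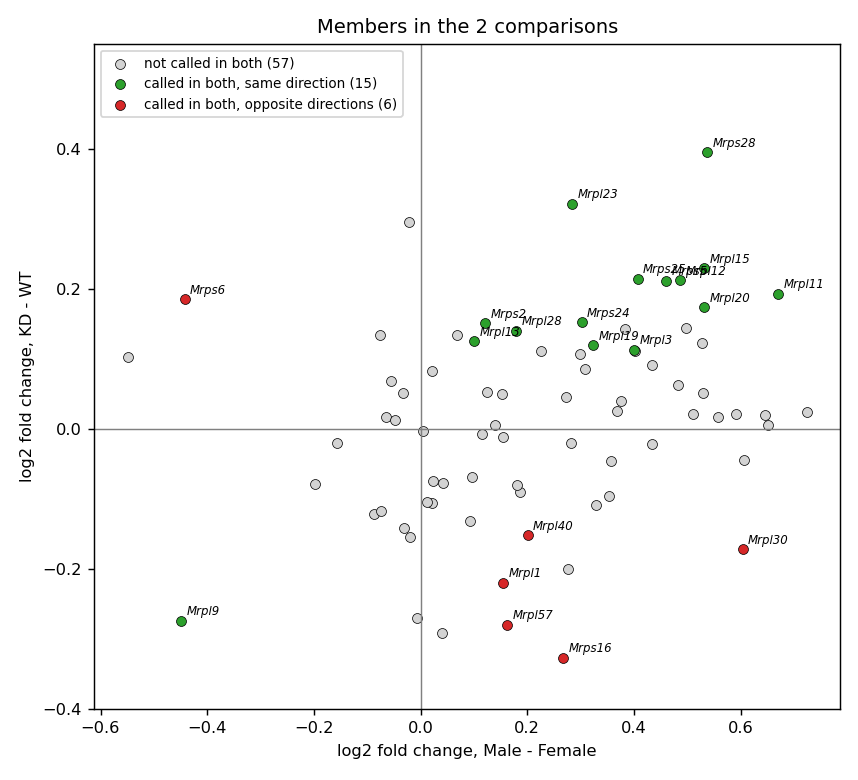
Log2 fold change of each member in Male against Female (horizontal axis) and in KD against WT (vertical axis), 1 point per gene. Green points were called in both comparisons in the same direction (15), red points in opposite directions (6), and grey points were not called in both (57). The green points fill the upper right, except Mrpl9 at the lower left, and 5 of the 6 red points lie at the lower right.

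The 3 Mrps18 paralogs, which descend from 1 bacterial protein and occupy different places on the mitoribosome, differed among themselves. Mrps18b had 26.1, 25.3 and 25.8 CPM in the Female samples and 35.1, 32 and 31.7 CPM in Male, a log2 fold change of 0.36 ± 0.0467 (adjusted p 9.71e-05 by edgeR). Mrps18a, which structures place in the large subunit, had 32.6, 32.1 and 31.9 CPM in the Female samples and 31.4, 32.9 and 33 in the Male samples, and Mrps18c had 14.6, 13.9 and 15.2 and 16.5, 14.7 and 13.8. The sexes overlapped for these 2 genes, and the sign of their small differences changed with the processing. In KD against WT none of the 3 was called, with log2 fold changes of -0.10 for Mrps18a, -0.05 for Mrps18b and -0.08 for Mrps18c. Without KD replicate 3 the adjusted p of Mrps18a was 0.0435. Over 10% of the transcript of Mrps18b and of Mrps18c overlapped or was shared with other genes.

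Symbols do not always match the place of a protein. Mrps36, now known as a subunit of the alpha-ketoglutarate dehydrogenase complex and not of the ribosome, had 12.7, 12.2 and 11.7 CPM in the Female samples and 13.9, 15 and 13.7 CPM in Male. Its log2 fold change was 0.23 ± 0.0624 with an edgeR adjusted p of 0.0121, or 0.0690 without Male replicate 2. It was not called once trends with length and GC were removed (0.12, adjusted p 0.130 by edgeR). With Mrps30 and Mrps18a counted in the large subunit and Mrps36 left out, 16 of 26 small-subunit members were higher and 1 lower in Male, with a median of 0.275. For the large subunit the counts were 32 and 3 of 51, with a median of 0.186.

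Sorted by origin, members with a bacterial counterpart were called more often. Of 45 such members, 34 were higher and 2 lower in Male, with a median log2 fold change of 0.302, and of 31 mitochondrion-specific members 14 were higher and 2 lower, with a median of 0.114. In KD against WT, 15 of the 45 were higher and 8 lower, and 2 of the 31 were higher and 2 lower. The medians there were 0.026 and -0.002. In Male, 75.6% of the bacterial class were higher and 4.44% lower, and 45.2% and 6.45% of the mitochondrion-specific class. Of all genes tested, 23.5% were higher and 26.3% lower. In KD the shares were 33.3% and 17.8% for the bacterial class, against 16.8% and 18.4% of all genes tested. For the mitochondrion-specific class they were 6.45% and 6.45%, below those of all genes. The difference between these classes was not tested, and Mrps36 and Mrpl55 were in neither.

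The 26 members that lie head to head with another gene allowed a look at their partners, whose names were chosen after their values were seen. Mrpl46 and Mrps11 are each other's partner, which left 25 pairs. In Male against Female both genes were called in 14 pairs, with both higher in 8 and the member higher and the partner lower in 6. For KD against WT both were called in 4 pairs, with 1 pair higher, 1 lower, and the member lower and the partner higher in 2. Of all genes tested, 49.8% were called in the first comparison and 35.1% in the second. These are shares of single genes, and the share over head-to-head pairs of all genes was not taken. The counts of pairs therefore have no background here. Of the 26 members themselves, 19 were higher and 1 lower in Male, and 2 higher and 5 lower in KD. The starts of Mrpl30 and Mitd1, a gene of midbody abscission, are 66 bases apart. Mitd1 had a log2 fold change of 0.73 in Male against Female (adjusted p 1.37e-06 by edgeR) and of -0.41 in KD against WT (adjusted p 7.70e-05 by edgeR), the same directions as Mrpl30. By contrast, Mrpl49 starts 59 bases from Fau, which encodes a ubiquitin-like fusion with a cytosolic ribosomal protein and differed by 0.03 between the sexes (adjusted p 0.448) where Mrpl49 was lower. Mrpl41 and Pnpla7, 935 bases apart, went opposite ways, with Pnpla7 at -0.86 in Male against Female (adjusted p 3.21e-08 by edgeR).

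Levels between genes were compared as counts per 1000 bases of exon and 1000000 counts (RPKM). Over the members the median RPKM was 8.72 in Female, 10.5 in Male, 11.0 in WT and 11.3 in KD. Mrpl48 was the lowest in each group, at 2.23 RPKM in Female, 2.26 in Male, 2.2 in WT and 2.33 in KD. The highest were Mrpl34 in Female, at 36.6 RPKM, and Mrpl12 in Male, WT and KD, at 45.2, 47.8 and 55.4 RPKM. The order depended on the gene length used. With the length of the principal transcript, Mrpl33 was the highest in each group, and Spearman's rho between the orders was between 0.63 and 0.67 over the 78 genes.

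The other genes of mitochondrial translation are read against the same background, 23.5% of all genes tested called higher and 26.3% lower in Male, and 16.8% and 18.4% in KD. Of the 5 mitoribosomal proteins without an Mrp symbol, 4 were higher in Male: Chchd1 (0.55 ± 0.0488 SE on the log2 scale), Aurkaip1 (0.48 ± 0.0362), Ptcd3 (0.34 ± 0.0334) and Gadd45gip1 (0.34 ± 0.0427). Dap3 was not called (-0.07 ± 0.0308). None of the 5 was called in KD against WT, with log2 fold changes between -0.11 and 0.04. Of 12 mitochondrial translation factors, 6 were higher and 0 lower in Male, led by the elongation factors Tufm, at 61.2 ± 0.193 CPM (SD, n = 3) in Female and 81.8 ± 1.14 in Male, and Gfm1, at 41.1 ± 0.908 and 57.8 ± 2.28. In KD, 2 of the 12 were higher, Gfm1 (0.19 ± 0.0307) and Guf1 (0.19 ± 0.0433), and 0 lower.

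Of 24 assembly factors, 2 were higher and 7 lower in Male, with a median log2 fold change of -0.048, close to the -0.0592 of all protein-coding genes tested. Mrm1, which methylates the large ribosomal RNA, averaged 40.9 ± 1.09 CPM (SD, n = 3) in Female and 23.9 ± 0.776 in Male (-0.78 ± 0.0399, adjusted p 8.23e-08 by edgeR). Tfb1m, which methylates the small ribosomal RNA, averaged 20.7 ± 0.989 CPM in Female and 13.9 ± 0.567 in Male (-0.57 ± 0.0556). Fastkd2, an RNA-binding protein of large-subunit assembly, rose by 0.47 ± 0.0669. In KD, 5 of the 24 were higher, among them the GTPases Gtpbp10 (0.27 ± 0.0664) and Eral1 (0.19 ± 0.0446), and 2 lower, among them the helicase Ddx28 (-0.22 ± 0.0411).

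Of 20 mitochondrial aminoacyl-tRNA synthetase genes, 5 were higher and 5 lower in Male, shares near those of all genes tested, with Yars2 at 0.38 ± 0.0519 and Fars2 at -0.32 ± 0.0574, and 3 were higher and 2 lower in KD. Of 14 genes of mitochondrial transcription and RNA upkeep, 7 were higher and 3 lower in Male. Pnpt1, a polynucleotide phosphorylase, averaged 51.9 ± 1.64 CPM in Female and 75.4 ± 1 in Male, and Lrpprc, which stabilises mitochondrial messenger RNA, averaged 85.9 ± 2.99 and 121 ± 1.56. Grsf1, of the mitochondrial RNA granule, was lower (-0.36 ± 0.0263). In KD, 2 of the 14 were higher, Lrpprc (0.30 ± 0.0244) and the RNA polymerase Polrmt (0.28 ± 0.0347), and 4 were lower. Of 8 tested regulators of mitochondrial biogenesis, 2 were higher and 4 lower in Male and 4 higher and 1 lower in KD. The coactivator Pprc1 was higher in both (0.34 ± 0.025 and 0.18 ± 0.0213), whereas Gabpb1, a partner of the ETS factor GABPA, was lower in Male (-0.26 ± 0.0257) and higher in KD (0.22 ± 0.0359). Nrf1 (-0.18), Gabpa (-0.17) and Yy1 (-0.18), whose motifs were searched in the promoters, were each called lower in Male. With length and GC trends removed, Yy1 was not called there (-0.04, edgeR adjusted p 0.170). In KD, Nrf1 and Gabpa were not called. Yy1 was called lower there (-0.11, edgeR adjusted p 0.0276), but not with upper-quartile factors (adjusted p 0.104).

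**Figure D5:**
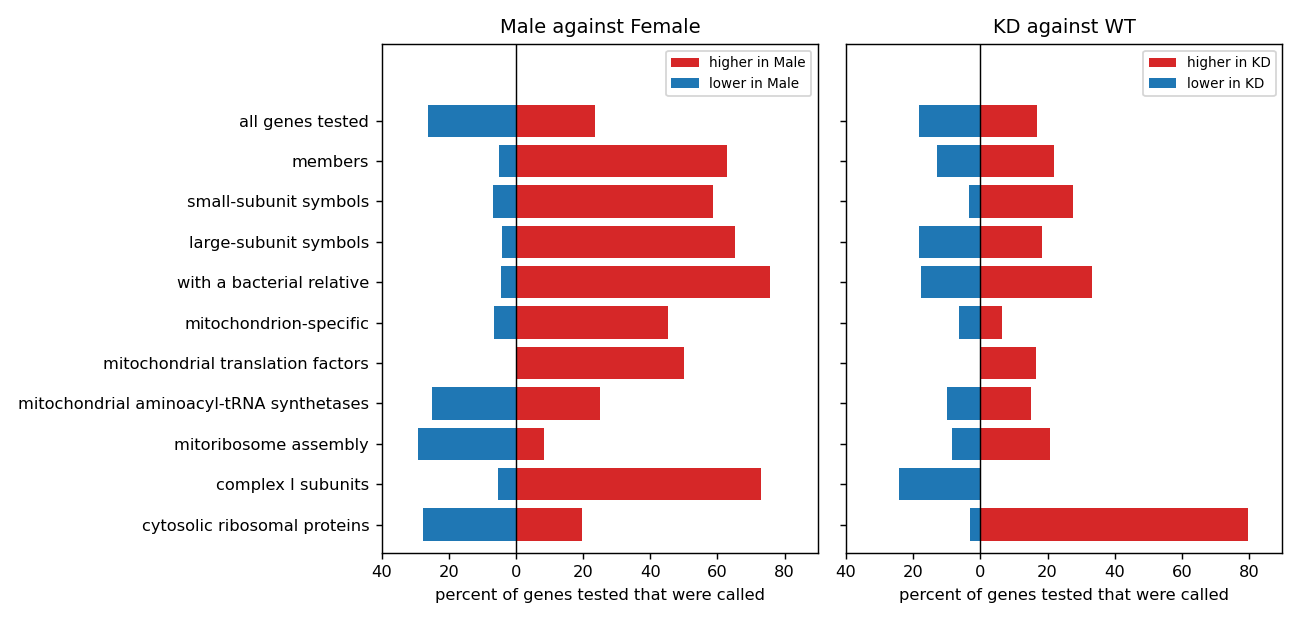
Share of genes called higher (red, right of 0) and lower (blue, left of 0) for all genes tested, the members and their subsets, and the related gene lists, in Male against Female (left) and KD against WT (right). The horizontal axis is the percent of the genes tested in each list. In Male, 62.8% of members were called higher against 23.5% of all genes tested, and in KD 21.8% against 16.8%.

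Other families of nuclear-encoded subunits gave a different pair of patterns. Of the 37 complex I subunits of the respiratory chain, 27 were higher and 2 lower in Male, with a median log2 fold change of 0.308, and 0 were higher and 9 lower in KD, with a median of -0.042. Of the cytosolic ribosomal proteins, 19 of 97 tested were higher and 27 lower in Male, with a median of -0.030, and 78 of 98 were higher and 3 lower in KD, with a median of 0.272. The mitochondrial ribosomal proteins thus had counts nearer to those of complex I in the first comparison and between the families in the second. No test of the differences between these families was made. Many cytosolic ribosomal protein genes have processed pseudogenes, between which reads could be split.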

How the data were processed

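RNA of 12 samples was measured, with groups taken from the sample titles. Total RNA was made into stranded libraries after ribosomal RNA depletion, per the labels' protocols. What the authors deposited were raw counts for every gene, in 2 tables that each hold the samples of 1 comparison. The submitters' processing notes name bcl2fastq 2.20.0, HISAT2, StringTie, DESeq2 and mm10; their roles, the annotation and the use of strand in counting are not given in the sources used here. Positions and symbols came from GENCODE M21 (GRCm38), where 55227 of the 55487 identifiers were found and which may differ from the authors' annotation. Promoter windows came from RefSeq.

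Each comparison was fitted apart, on 6 samples, using edgeR 4.0.16 (R 4.3.3): filterByExpr, TMM factors, the quasi-likelihood test and Benjamini-Hochberg adjustment over all genes tested, with genes called at an adjusted p under 0.05. CPM used TMM-scaled library sizes. Standard errors (SE) were obtained from the F statistic, as the size of the log2 fold change over the root of F. The steps were tested on simulated data. Alternatives covered scaling, filters, DESeq2 1.42.0, limma-voom (limma 3.58.1), a threshold of 0.01, all 12 samples in 1 fit, a replicate block, protein-coding genes only, counts divided by 4, removal of length and GC trends, placement by structure and leaving out each library. A further set, without the 30 members of uncertain counts, was chosen after seeing the data.

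Named members were, per comparison, the 8 called with the smallest p in each direction and those with an absolute log2 fold change of at least 0.58. Also taken were up to 8 members called in both comparisons and up to 8 called in opposite directions, the 3 highest and 3 lowest per length, and 8 set symbols. Of each list, the 2 called genes of smallest p per direction were taken, and not each gene taken is named. Beyond these, Nrf1 and Gabpa were named for their motifs, after their values were seen. The members and lists were chosen with earlier results of these data known. The list symbols Mrpp3 and Prorp were not matched.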

Additional observations from a re-analysis of the deposited data

How the results depend on the processing

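In Male against Female, 41 of the 53 member calls were kept under every alternative and with each library left out, and in KD against WT 15 of 27. The median log2 fold change of small-subunit members in Male against Female was 0.226, and it was 0.280 with protein-coding genes only, 0.178 with length and GC trends removed, 0.178 with the replicate block as well, 0.275 with members placed by structure, 0.121 without the members of uncertain counts, and 0.190 to 0.251 with 1 library left out. For the large subunit (0.201) it was 0.254 with protein-coding genes only and 0.174 to 0.227 with 1 library left out. In KD against WT upper-quartile factors gave medians of 0.052 and 0.050, and leaving out 1 library gave 0.008 to 0.059 and 0.022 to 0.029. Under that scaling the median of all genes moved from 0.012 to 0.043. Counts called higher in Male were 49, and 31 of 48 without the uncertain members, and 45 to 46 with 1 library left out. Counts called lower were 4, and 7 in the fit of all 12 samples, and 3 to 5 with 1 library left out. Counts called higher in KD were 17, and 10 at a threshold of 0.01 and 10 of 48 without the uncertain members, with 11 to 16 when 1 library was left out. Counts called lower in KD were 10, and 6 at 0.01, with 7 to 12 when 1 library was left out. The smaller set of members, or the stricter threshold, lowers these counts by construction, and the cause of the other changes was not tested.

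Changes of sign were looked for only among the named members, and those that changed sign were near 0. Mrps18a in Male against Female (0.01) was at -0.00298 with no low-count filter, -0.000446 with length and GC trends removed, -0.000637 with the replicate block as well, -0.01 in the fit of all 12 samples, and -0.00554 to 0.03 with 1 library left out (-0.00145 without Male replicate 3). Mrps18c (0.04) was at -0.08 with length and GC trends removed and -0.08 with the block as well, and at -0.04 to 0.10 with 1 library left out. In KD against WT, Mrps30 (-0.02) was at 0.01 with upper-quartile factors and -0.08 to 0.04 with 1 library left out (0.03 without KD replicate 3), and Mrps12 (0.02) at -0.03 to 0.06 (-0.00162 without KD replicate 1).

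The titles number replicates 1 to 3 in each group, but same-numbered samples did not deviate together: correlations of their deviations were -0.00113, -0.000658 and 0.0176 in Male against Female and -0.00487, -0.0399 and 0.0206 in KD against WT. With the replicate block, 49 members were called higher and 5 lower in Male, and 17 higher and 10 lower in KD, with medians of 0.226 and 0.202 and of 0.022 and 0.019. The smallest library held 78748647 counts and the lowest member 372 counts, and how much of the spread between replicates is counting error was not tested.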
